A study of Bos taurus with 16 samples.

Results

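The genes described here are 10 genes of the contractile actin cytoskeleton: the transgelins TAGLN and TAGLN2, the calponins CNN1, CNN2 and CNN3, the smooth muscle actin ACTA2, the tropomyosins TPM1 and TPM2, the myosin light chain MYL9 and the plastin PLS3. They were chosen by name, with the fall of TAGLN in LY10 blastocysts already known. All 10 were found in each of the 3 expression tables, which hold 38959, 37429 and 28303 genes. Because that fall drew the choice, the members' values of LY10 against DMSO are given as a description without p-values, and tests of members are given for the other comparisons only. Calls of genes outside the group are given for all comparisons.

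Bovine in vitro-fertilized embryos and bovine embryonic stem cells (bESCs), all wild type, were treated with LY2955303 (LY), an inhibitor of retinoic acid receptor gamma, and RNA of 16 libraries was sequenced. The first blastocyst table compares 3 DMSO with 3 LY10 blastocysts, the latter labelled with LY at 10 uM. The second compares 2 blastocysts given LY from the 2-cell stage (cell2_LY) and 2 given it from the 16-cell stage (cell16_LY) with 2 solvent controls (LY_DMSO), which serve both groups. Their dose is not given in the labels. As the treatment at 10 uM is described, LY was added from the 2-cell stage there too, so start stage does not separate LY10 from cell2_LY. The bESC table compares 2 libraries with LY (bESC_LY) and 2 in the tifx culture medium (bESC_tifx). Each blastocyst library was amplified from a single embryo with SMART-Seq, and the bESCs were kept on a feeder layer of mitotically inactivated mouse embryonic fibroblasts in a medium that holds further inhibitors. Nothing in the labels says that the bESC libraries came from separate cultures, so p-values in that table measure only the spread between those samples. A blastocyst library mixes trophectoderm and inner cell mass, and fewer cells of a type and less RNA per cell cannot be told apart in it.

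Contractile cells slide myosin along actin filaments, and the proteins of this group form or decorate those filaments. ACTA2 is the actin of smooth muscle and myofibroblasts, tropomyosins run along the filament and set access for myosin, MYL9 is the light chain whose phosphorylation switches myosin on, and calponins and transgelins bind and stabilise the filament. PLS3 bundles filaments in non-muscle cells. Many of these genes, TAGLN, CNN1, ACTA2, TPM1, TPM2 and MYL9 among them, are classical targets of serum response factor (SRF) and its actin-sensing partners MRTFA and MRTFB. Outside muscle, TAGLN2, CNN3, TPM3 and TPM4 are the common non-muscle forms.

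The libraries had between 7905768 and 17343140 reads on genes in the blastocysts and between 29055323 and 31230432 in the bESCs. KRT8, a trophectoderm keratin, was between 1582 and 6493 FPKM (fragments scaled for gene length and library size) in every blastocyst. POU5F1, a pluripotency factor, was between 967 and 1117 FPKM in the bESCs. The summed FPKM of 8 trophectoderm markers was 2592 to 9547 in blastocysts and 94.3 to 295 in the bESCs, which were thus not free of them. Of 6 epiblast markers, 5 were in the bESC table and 4 were above 1 FPKM in each bESC library. Reads on 4 Y-linked genes (USP9Y, DDX3Y, ZFY and EIF1AY) were 1964 or more in 6 blastocysts and 0 in the other 6. Those with such reads were DMSO 3, LY10 1, LY_DMSO 1, cell16_LY 2, and both cell2_LY blastocysts, so that in the second table the group cell2_LY is not balanced for them.

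Among the blastocysts, the group with the highest FPKM was ACTA2, TAGLN2, TPM1 and CNN3, and the lowest was CNN1. FPKM is scaled for gene length, so that it can be set side by side between genes of 1 table. In DMSO blastocysts the mean level was 117 ± 48.8 FPKM (SD, n = 3) for ACTA2, 116 ± 62.9 for TAGLN2, 109 ± 28.0 for TPM1 and 80.2 ± 21.7 for CNN3. The ranges of these 4 genes overlapped from each to the next, so that their order was not separated by the spread. PLS3, MYL9 and TAGLN followed at 13.9 ± 4.32, 11.96 ± 5.94 and 10.1 ± 1.49 FPKM, again with overlapping ranges, then TPM2 at 6.79 ± 2.22 and CNN2 at 5.03 ± 0.862. CNN1 lay at 0.728 ± 0.719 FPKM.

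The bESCs had another order. CNN3 led at 153 ± 1.91 FPKM (SD, n = 2) in bESC_tifx, followed by TAGLN2 at 79.6 ± 0.859 and CNN2 at 61.1 ± 20.5, and ranges did not overlap between these 3. ACTA2, which had the highest mean in every blastocyst group but LY10, was at 1.80 ± 0.681 FPKM in bESC_tifx, with a range that overlapped that of TAGLN at 1.35 ± 0.248. CNN1 was read at 6.85 and 12.3 FPKM in the bESC_tifx libraries, above its level in all 12 blastocysts. The bESC table uses other gene models, with a gene length for ACTA2 of 2656 bases against 1347 in the blastocyst tables, and it was normalized separately, so levels set across these tables are a description.

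**Figure D1:**
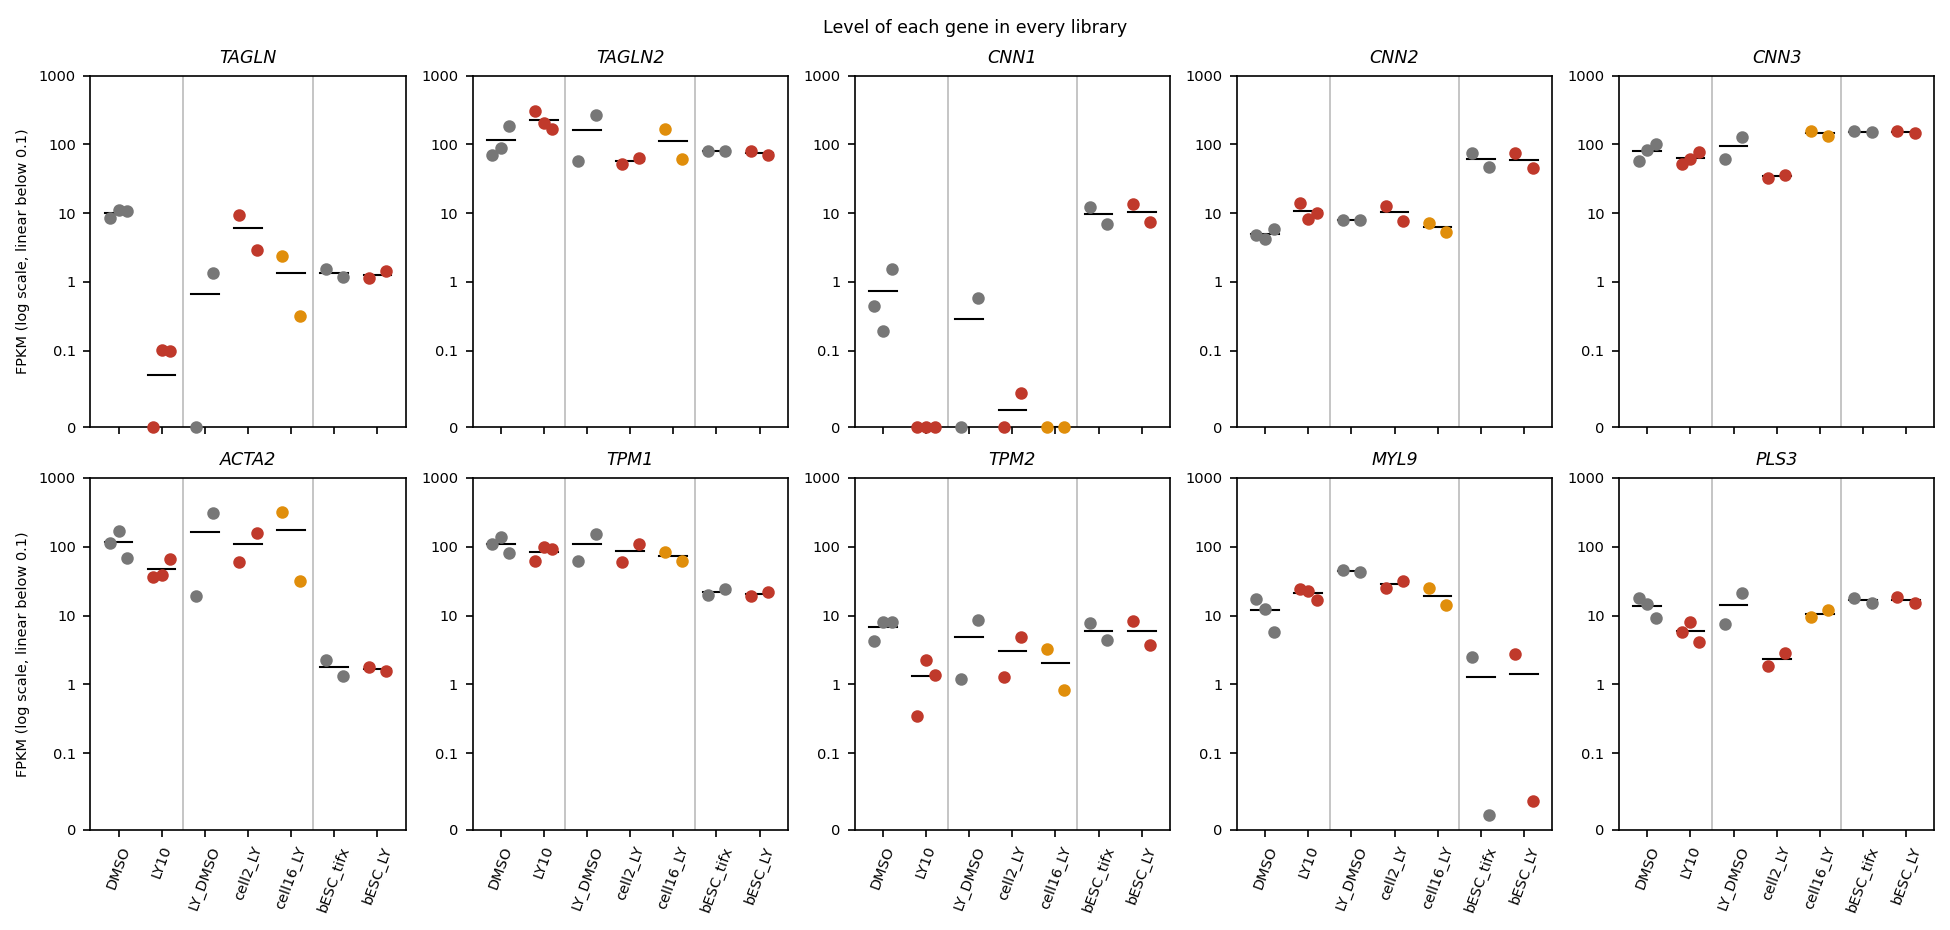
FPKM of each gene (vertical axis, log scale that is linear below 0.1) in the 16 libraries, by group; points are libraries, short lines are group means and grey vertical lines part the 3 tables. TAGLN of the LY10 libraries lies at or below 0.104 FPKM against 8.36 to 11.0 in DMSO, and ACTA2 spreads from 19.5 to 321 FPKM within the second blastocyst table.

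Within the transgelins, calponins and tropomyosins a non-muscle form had the highest FPKM, and TAGLN, CNN1 and TPM2, which mark smooth muscle, were minor forms. TAGLN2 made up between 84.6% and 100% of the summed FPKM of the transgelins in every library, and TAGLN at most 15.4%, in cell2_LY 1. TAGLN was 5.44% to 11.0% of transgelin FPKM in the DMSO blastocysts and 0% to 0.0595% in LY10. CNN3 made up 71.8% to 96.2% of the calponins in blastocysts and 63.7% to 73.9% in bESCs. CNN2 took 4.95% to 7.71% of calponin FPKM in DMSO and 11.6% to 21.0% in LY10, and 17.7% and 28.2% in cell2_LY against 5.89% and 11.3% in LY_DMSO. TPM4 was the leading tropomyosin in the blastocysts, at 46.6% to 76.7%, while TPM3 led in the bESCs, at 53.7% to 60.0%. TPM2 never exceeded 2.21% of its family. Among the actins ACTA2 was a minor form too, at 0.234% to 3.75% in blastocysts, where ACTB held 62.2% to 76.8%. Among the plastins PLS1, the form of epithelial microvilli, held 80.4% to 98.9% in blastocysts, and PLS3 held 80.2% to 86.1% in bESCs.

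**Figure D2:**
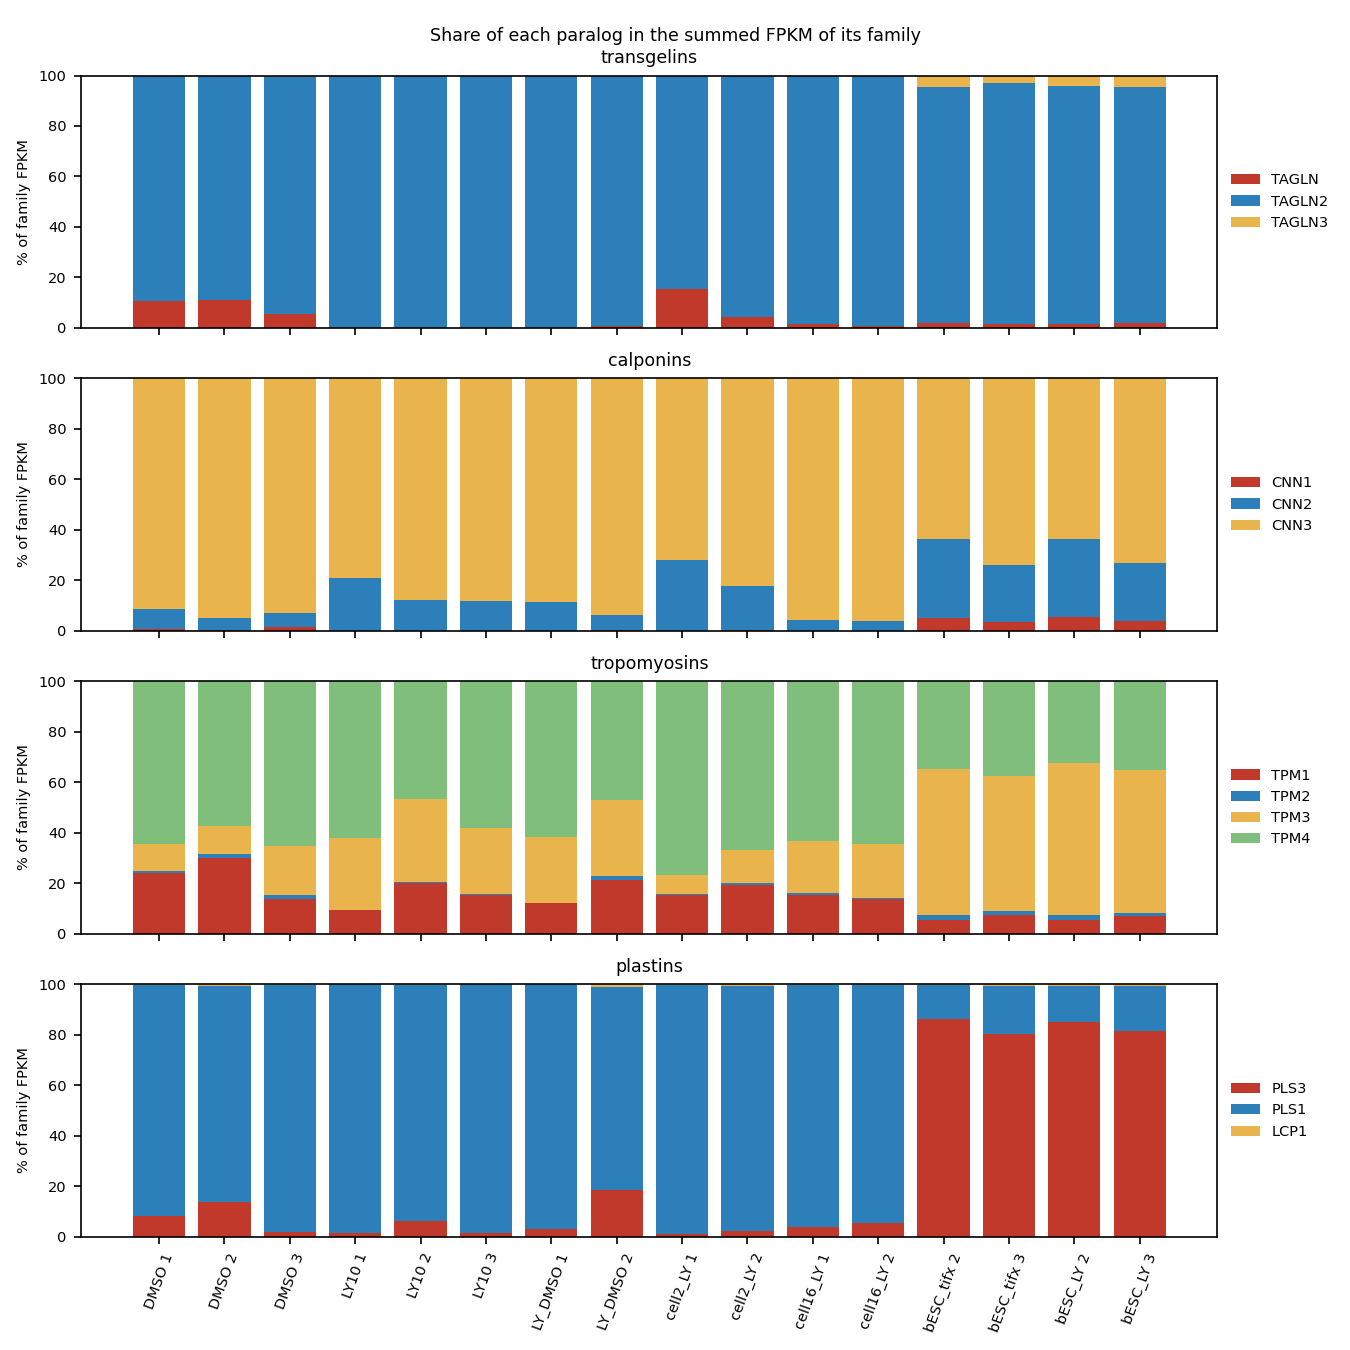
Stacked bars of the share of each paralog (percent of the summed FPKM of its family) in each of the 16 libraries. TAGLN2, CNN3 and PLS1 fill most of their bars in the blastocysts, and PLS3 in place of PLS1 fills the plastin bar of the bESCs.

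In the first blastocyst table TAGLN, TPM2, ACTA2 and PLS3 were lower in every LY10 blastocyst than in every DMSO one, CNN2 was higher in every one, and TPM1, CNN3, TAGLN2 and MYL9 overlapped. CNN1 was read in the DMSO blastocysts and in no LY10 one, at counts too low to part every pair of libraries. TAGLN (gene 513463, chromosome 15, 27889685 to 27894949, plus strand) was at 8.36, 11.0 and 10.8 FPKM in the DMSO blastocysts and at 0, 0.104 and 0.1003 in LY10. These were 139, 143 and 128 reads against 0, 2 and 1, and the 0 reads of LY10 1 allow up to 0.317 FPKM (3 reads). The groups were far apart, with the lowest DMSO value above every LY10 value. Per normalized read the DMSO group held 128 times as many reads as LY10, with a 95% exact binomial interval of 43.4 to 622 that covers counting error only. The fitted log2 fold change was −6.21, a value that depends on the 1 added to each count.

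CNN1 (gene 534583, chromosome 7, 15883452 to 15891280, plus strand), the calponin of differentiated smooth muscle, had 9, 3 and 22 reads in DMSO and 0 in all 3 LY10 blastocysts. DMSO 2, at 0.192 FPKM, lay under the limits that 0 reads allow in LY10 1 and LY10 3, 0.262 and 0.249 FPKM. It stood below the count filter, a mean of 10 normalized counts, and was not fitted. Setting LY10 at 3 reads in all, it was at least 10.6-fold lower in LY10. TPM2 (gene 497015, chromosome 8, 59856502 to 59863879, minus strand), the beta tropomyosin, was at 4.23, 8.002 and 8.15 FPKM in DMSO and at 0.348, 2.23 and 1.38 in LY10, with no overlap and a log2 fold change of −2.60 (SE 0.66). ACTA2 (gene 515610, chromosome 26, 10626815 to 10644100, minus strand) was at 114, 167 and 69.7 FPKM in DMSO and at 36.6, 38.5 and 66.2 in LY10, a log2 fold change of −1.28 (SE 0.36). The gap between the closest ACTA2 libraries, DMSO 3 and LY10 3, was narrow.

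PLS3 (gene 505687, chromosome X, 64140180 to 64236959, plus strand) was at 17.8, 14.7 and 9.22 FPKM in DMSO and at 5.84, 8.05 and 4.14 in LY10, with no overlap and a log2 fold change of −1.20 (SE 0.35). The alpha tropomyosin TPM1 (gene 281544, chromosome 10, 46993263 to 47022836, minus strand) overlapped between the groups, at 110, 136 and 80.2 against 62.7, 98.6 and 94.2 FPKM, a log2 fold change of −0.35 (SE 0.27). CNN3 (gene 538975, chromosome 3, 48568965 to 48599127, plus strand), the widely expressed acidic calponin, overlapped too, at 57.7, 81.9 and 101 against 52.2, 60.8 and 76.9 FPKM.

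The remaining 3 genes had higher means in LY10. CNN2 (gene 539019, chromosome 7, 43535158 to 43543274, plus strand), the calponin of non-muscle cells, was at 4.86, 4.27 and 5.97 FPKM in DMSO and at 13.8, 8.31 and 10.1 in LY10, without overlap and with a log2 fold change of 1.07 (SE 0.32). TAGLN2 (gene 282379, chromosome 3, 9761180 to 9769006, plus strand) was at 70.3, 89.4 and 188 FPKM against 304, 204 and 168, so that DMSO 3 lay within the LY10 range. MYL9 (gene 505964, chromosome 13, 65647900 to 65655870, plus strand) was at 17.6, 12.5 and 5.78 against 24.0, 23.0 and 16.5 FPKM, and DMSO 1 lay within the LY10 range.

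Of the 9 fitted members, 5 had groups that did not overlap and differed by more than 1 on the log2 scale, namely TAGLN, TPM2, ACTA2 and PLS3 lower and CNN2 higher. Over all 14249 genes tested the same held for 14.1%, with 7.98% lower and 6.15% higher. The 10th, CNN1, did not pass the filter. The median log2 fold change of the 9 was −0.35, beside −0.05 over all genes. Some markers of other cell types also differed between LY10 and DMSO. Of the 10 fibroblast markers, 6 were tested, and COL1A2, DCN and S100A4 passed the threshold used for calls (limma, unadjusted p under 0.05 with a log2 fold change beyond 1 in either direction), all lower in LY10. Of all genes tested, 14.7% passed that threshold. The summed FPKM of the fibroblast list was 49.5 to 109 in DMSO and 8.76 to 16.1 in LY10. S100A4 was at 24.8, 70.7 and 17.7 FPKM against 2.66, 2.09 and 4.30, and LUM varied from 1.41 to 80.1 within DMSO. The collagen genes of the list were split, since COL1A2 passed as lower while COL1A1 and COL3A1 stayed at or below 0.507 FPKM in all 6. Of the epiblast markers 2 of 6 tested passed, both higher in LY10, namely POU5F1 with a log2 fold change of 1.23 and DPPA4 with 1.59. The summed FPKM of that list was 206 to 312 in DMSO and 396 to 777 in LY10, without overlap. Of the hypoblast markers 2 of 4 tested passed, also higher, namely HNF4A at 3.31 and PDGFRA at 3.74. All 4 had groups that did not overlap, 2 higher and 2 lower in LY10. Of those lower, 1 differed by more than 1 on the log2 scale. Over all 14249 genes, groups did not overlap for 1961 higher and 2049 lower. The summed FPKM of the hypoblast list overlapped, at 69.6 to 111 in DMSO and 71.0 to 99.1 in LY10. None of the 8 trophectoderm markers passed by limma. Of the 6 smooth muscle markers, 2 were tested and 0 passed by limma. LMOD1, MYOCD and MYH11 were at or below 0.121 FPKM, DES at or below 0.230 and SYNPO2 at or below 0.652 in all 6 libraries. The smooth muscle actin ACTG2 was read at 31.1, 12.8 and 6.07 FPKM in DMSO and at 3.18, 64.5 and 1.61 in LY10, with overlap. The part of any of these markers in the members' values was not tested.

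In the second blastocyst table TAGLN went the other way in embryos treated from the 2-cell stage, and PLS3 and CNN3 were lower there. TAGLN was at 9.40 and 2.94 FPKM in cell2_LY and at 0 and 1.35 in LY_DMSO, or 159 and 55 reads against 0 and 27. Both treated blastocysts lay above both controls. Groups likewise did not overlap here for 3904 genes higher and 3905 lower of the 14529 tested. The 0 of LY_DMSO 1 allows up to 0.150 FPKM of TAGLN. The log2 fold change was 4.27 (SE 1.55; limma, unadjusted p = 0.0235, adjusted p = 0.149). As in LY10 this value depends on the scale, and with all libraries kept it ranged from 2.06 on log2(FPKM + 1) to 6.12 with Y-linked reads as a covariate. In the reads of both libraries together LY_DMSO held 0.113 times the normalized reads of cell2_LY (exact binomial 95% interval 0.0731 to 0.169, counting error only). The call rests on single libraries: without LY_DMSO 1 the log2 fold change was 1.92 and without cell2_LY 1 it was 3.45, with unadjusted p = 0.158 and 0.153 by limma.

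PLS3 was at 1.86 and 2.85 FPKM in cell2_LY, while LY_DMSO had 7.49 and 20.9 and cell16_LY 9.51 and 11.8. The 2 cell2_LY blastocysts were the lowest of the 6 in this table. Against LY_DMSO the log2 fold change was −2.43 (SE 0.49; limma, unadjusted p = 0.000909, adjusted p = 0.0716). PLS3 is X-linked, and the Y-linked reads present in both cell2_LY blastocysts were absent from LY_DMSO 2 and cell16_LY 1. With these reads as a covariate, an alternative chosen after seeing the data, the log2 fold change was −2.14 (limma, unadjusted p = 0.00443).

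CNN3 was at 32.4 and 35.8 FPKM in cell2_LY and at 61.9 and 127 in LY_DMSO, without overlap. The log2 fold change was −1.38 (SE 0.35; limma, unadjusted p = 0.00369, adjusted p = 0.0842), and without LY_DMSO 2 it was −0.86, under the fold threshold. In cell2_LY against LY_DMSO these 3 of the 9 tested members passed the threshold, 1 higher and 2 lower, while 17% of the 14529 genes tested passed, 8.71% higher and 8.34% lower. None of the 9 passed an adjusted p of 0.05 by limma, while 0.0138% of all genes did. MYL9 was lower in both cell2_LY blastocysts, at 25.3 and 31.2 FPKM against 46.3 and 42.4, with a log2 fold change of −0.66 (limma, unadjusted p = 0.0866). TAGLN2, ACTA2, TPM1, TPM2 and CNN2 overlapped between the groups. CNN1 had 0 and 1 reads in cell2_LY against 0 and 14 in LY_DMSO, a ratio of 12.5 (exact binomial 95% interval 1.90 to 528) that rests on LY_DMSO 2.

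In embryos treated from the 16-cell stage MYL9 was the member that passed against the same controls, at 24.8 and 14.1 FPKM in cell16_LY and 46.3 and 42.4 in LY_DMSO, a log2 fold change of −1.25 (SE 0.34; limma, unadjusted p = 0.00568, adjusted p = 0.521). Both treated values lay below both controls. Without cell16_LY 2 the log2 fold change was −0.84 (limma, unadjusted p = 0.0720). Thus 1 of 9 tested members passed, beside 5.22% of all genes tested, or 1.97% for lower alone. Leaving out LY_DMSO 1 or LY_DMSO 2 raised the number to 4 or 3, and no gene passed an adjusted p of 0.05 by limma (0%). TAGLN was at 2.36 and 0.316 FPKM in cell16_LY, with LY_DMSO 2 at 1.35 between these values, a log2 fold change of 1.78 (95% interval −1.76 to 5.32) that turned to −0.57 without LY_DMSO 1. CNN1 had 0 reads in both cell16_LY blastocysts, at least 4.17-fold lower than LY_DMSO, whose 14 reads all came from LY_DMSO 2. CNN2 was at 7.09 and 5.28 FPKM against 7.85 and 7.999, a log2 fold change of −0.37 (limma, unadjusted p = 0.342). The CNN2 values did not overlap, which held for 42.9% of all genes in this comparison.

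Between the start stages, CNN3 and PLS3 were higher in cell16_LY than in cell2_LY. CNN3 was at 157 and 134 FPKM in cell16_LY against 32.4 and 35.8, a log2 fold change of 2.09 (SE 0.35; limma, unadjusted p = 0.000255, adjusted p = 0.186). PLS3 differed by 2.19 on the log2 scale (SE 0.49; limma, unadjusted p = 0.00176, adjusted p = 0.191). Both calls held when any 1 library was left out, with log2 fold changes of 1.97 to 2.20 for CNN3 and 1.89 to 2.50 for PLS3. These 2 of 9 members stand beside 11.3% of all genes called, or 5.58% for higher alone, and no gene passed an adjusted p of 0.05 by limma. Of the 8 trophectoderm markers 3 passed in this comparison, or 37.5%, with CDX2 at −1.84 and GATA2 at −1.94 lower in cell16_LY and IFNT2 at 2.87 higher, and their part was not tested. TAGLN was higher in both cell2_LY blastocysts than in both cell16_LY ones, with a log2 fold change of −2.49 (95% interval −6.03 to 1.05). Groups did not overlap in this comparison for 4094 genes higher and 3828 lower of the 14529 tested. Y-linked reads were present in both cell2_LY blastocysts. With these reads as a covariate 4 members passed, TAGLN at −4.34 and ACTA2 at −1.78 joining CNN3 and PLS3 (limma, unadjusted p = 0.00385 and 0.00907).

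The comparisons of cell2_LY and of cell16_LY with LY_DMSO share their 2 controls, and these controls differed from each other in many members. LY_DMSO 1 and LY_DMSO 2 had 19.5 and 312 FPKM of ACTA2, 1.18 and 8.71 of TPM2, 57.5 and 266 of TAGLN2 and 62.4 and 154 of TPM1. The residual SD of TAGLN, ACTA2, TPM2 and TAGLN2 in this table stood at the 98.5th, 98.2nd, 95.1st and 87.9th percentile of all genes tested. In the first table the same genes stood at the 51.3rd, 55.3rd, 79.9th and 59.5th percentile. For these genes the 95% intervals were wide, reaching for ACTA2 from −2.70 to 3.34 in cell2_LY against LY_DMSO. With 2 blastocysts a group, a change of ACTA2 by several fold in either direction was thus not excluded there.

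**Figure D3:**
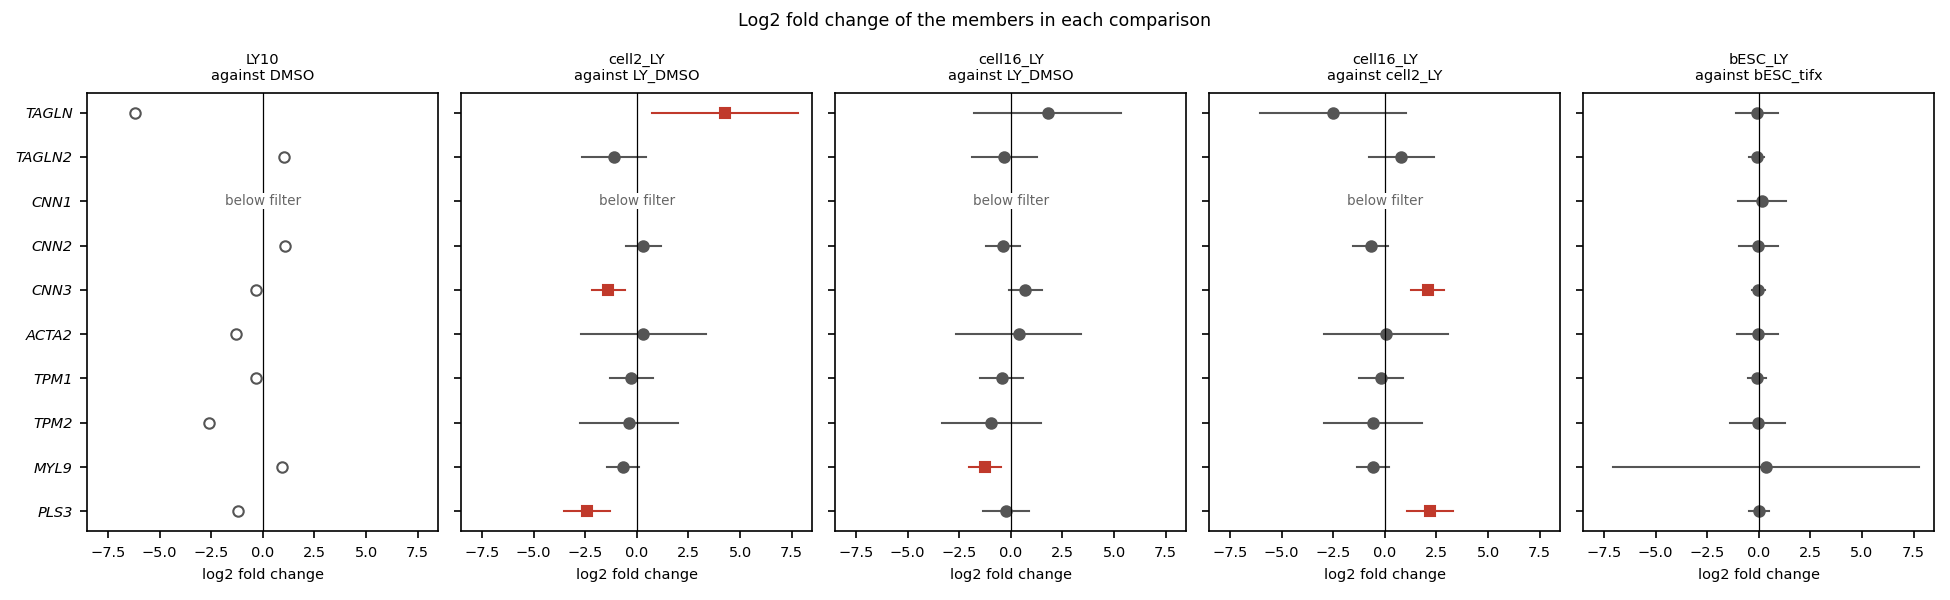
Log2 fold change (horizontal axis) of each member in the 5 comparisons; bars are 95% limma intervals, red squares passed the threshold for calls, and open circles are the untested values of LY10 against DMSO. TAGLN lies at −6.21 in LY10 and at 4.27 in cell2_LY, and the bESC values lie between −0.10 and 0.35.

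In the bESCs no member passed the test of LY against tifx medium. Of the 10 members, all tested, 0 had an unadjusted p under 0.05 by limma, beside 0.0999% of the 16012 genes tested. With the fold threshold as well 0.0749% were called, and 0% of genes passed an adjusted p of 0.05. CNN3 was at 154 and 151 FPKM in bESC_tifx and at 156 and 146 in bESC_LY, a log2 fold change of −0.02 with a 95% interval of −0.35 to 0.31. TAGLN2 was at 79.0 and 80.2 against 79.2 and 69.3 FPKM, with an interval of −0.48 to 0.27, and PLS3 at 18.01 and 15.3 against 18.5 and 15.4, with an interval of −0.46 to 0.50. TPM1 had an interval of −0.53 to 0.36. For TAGLN, at 1.53 and 1.18 against 1.14 and 1.42 FPKM, the interval of −1.10 to 0.95 reached beyond a fall by 1 on the log2 scale. So did those of ACTA2 (−1.06 to 0.95), CNN1 (−1.03 to 1.31) and TPM2 (−1.38 to 1.26). The interval of CNN2 was −0.96 to 0.91, and that of MYL9, given below, was the widest.

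The bESC libraries varied by their number rather than by treatment in several members. MYL9 was at 2.52 and 2.75 FPKM in the libraries numbered 2 and at 0.0190 and 0.0380 in those numbered 3. This was a difference of 5.81 on the log2 scale, and the interval of the LY effect on MYL9, −7.08 to 7.78, was correspondingly wide. CNN1 (12.3 and 13.6 against 6.85 and 7.50 FPKM), CNN2 (75.6 and 74.5 against 46.6 and 45.8) and TPM2 (7.71 and 8.1996 against 4.35 and 3.77) were higher in the libraries numbered 2 as well. The intermediate filament gene DES, a muscle marker, was at 86.4 and 76.1 against 4.66 and 3.58 FPKM. In 12.5% of all genes tested the libraries numbered 2 lay apart from those numbered 3 by more than 1 on the log2 scale, and of the members MYL9 met that. Fibroblast markers in the bESCs were split: COL1A1 was at 45.8 to 54.7, FBLN1 at 27.3 to 39.2 and THY1 at 10.0 to 18.7 FPKM, while COL3A1 and DCN stayed at or below 0.534. The summed FPKM of the list was 104 and 110 in bESC_tifx and 98.7 and 107 in bESC_LY. How far reads of the mouse feeder cells entered these values was not tested.

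Across the blastocysts, ACTA2, TPM1 and TPM2 varied together. Over the 6 libraries of each table, Pearson's r of log2(normalized count + 1) was 0.80 and 0.80 for ACTA2 with TPM1, 0.74 and 0.88 for ACTA2 with TPM2, and 0.69 and 0.97 for TPM1 with TPM2. These correlations are a description over libraries that share their table and, in the first table, the treatment difference. TAGLN2 went with ACTA2 in the second table (r = 0.80) and against it in the first (r = −0.90). In the second table the 2 blastocysts without Y-linked reads, LY_DMSO 2 and cell16_LY 1, had the highest ACTA2, 312 and 321 FPKM, and the highest TAGLN2, 266 and 165. The 4 with such reads had 19.5 to 158 FPKM of ACTA2 and 51.6 to 63.6 of TAGLN2. In the first table ACTA2 was at 69.7 and 36.6 FPKM in the 2 blastocysts with Y-linked reads and at 38.5 to 167 in the other 4, and TAGLN2 was at 188 and 304 against 70.3 to 204. With the covariate named above, ACTA2 in cell2_LY against LY_DMSO moved from 0.32 to 2.15 on the log2 scale (limma, unadjusted p = 0.00334). Both cell2_LY blastocysts had Y-linked reads, so the covariate was estimated from LY_DMSO and cell16_LY only. Each of these groups had 1 blastocyst with such reads and 1 without, and the value rests on those single blastocysts. That covariate stands for Y-linked reads and does not settle embryo sex. The X-linked gene XIST was at 13.7 FPKM in LY_DMSO 1 and 17.7 in cell2_LY 1, which both had Y-linked reads. It was at 11.9 FPKM in cell16_LY 1, which had none. The part of embryo sex in these levels was not tested further.

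**Figure D4:**
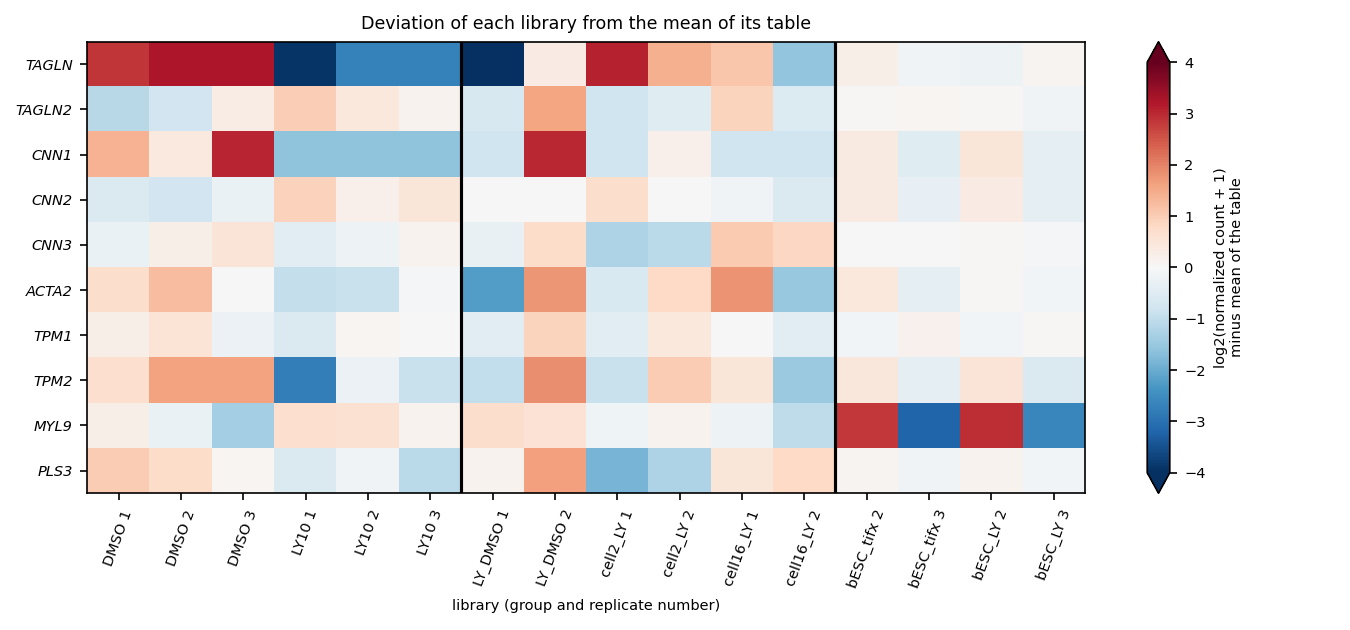
Deviation of log2(normalized count + 1) from the mean of its table (colour, red above and blue below, drawn up to 4) for each member and library; black lines part the tables. TAGLN divides DMSO from LY10, ACTA2 and TPM2 rise and fall together within the second table, and MYL9 divides the bESC libraries numbered 2 from those numbered 3.

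The genes whose levels were most like TAGLN over the 12 blastocysts, centred within each table, were STK35 (r = 0.93), LPP (0.91), VPS54 (0.91), CCNYL1 (0.90) and ARRDC2 (0.90), among 9317 genes ranked. LPP encodes a LIM-domain protein of focal adhesions, STK35 a kinase, VPS54 a subunit of an endosome tethering complex and ARRDC2 an arrestin-domain protein. Within the second table alone the r of STK35 was 0.96 and that of LPP 0.81. Its libraries were among the 12 used for the ranking, so these r are not separate support. STK35 was at 5.33, 8.22 and 5.69 FPKM in DMSO and 2.98, 3.01 and 2.67 in LY10. In the second table it was at 5.48 and 4.90 in cell2_LY, the cell16_LY blastocysts had 4.69 and 4.14, and LY_DMSO 2.67 and 4.15, with the lowest value in LY_DMSO 1, where TAGLN had no read. Of the members, TPM2 (r = 0.71), ACTA2 (0.63) and CNN1 (0.61) were most like TAGLN over the 12, while CNN2 (−0.46) and MYL9 (−0.52) ran against it. This order did not hold within the second table alone. There the r with TAGLN was 0.38 for TPM2, 0.62 for ACTA2, 0.13 for CNN1, 0.53 for CNN2 and −0.22 for MYL9. The r over the 12 blastocysts share the DMSO and LY10 difference by which TAGLN was noticed.

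**Figure D5:**
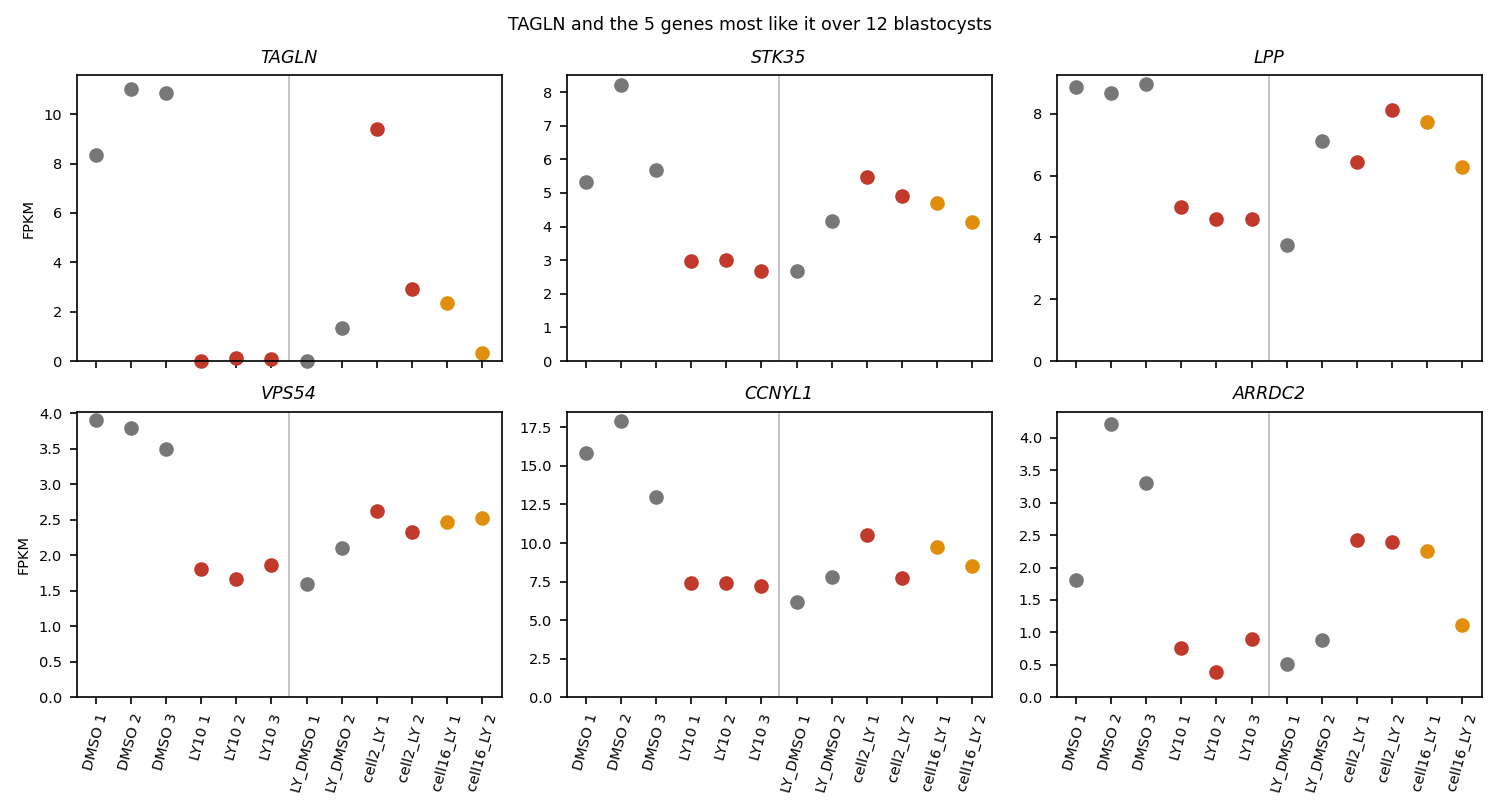
FPKM of TAGLN and of the 5 genes most like it in the 12 blastocysts (grey, DMSO controls; red, LY10 and cell2_LY; orange, cell16_LY; the grey line parts the tables). TAGLN falls to at most 0.104 FPKM in LY10, while STK35 stays between 2.67 and 3.01.

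A list of 44 other actin cytoskeleton genes, ordered by role, gives the surroundings of these changes. In LY10 against DMSO 5 of 38 tested passed the threshold for calls, or 13.2%, beside 14.7% of all genes. TPM3, a non-muscle tropomyosin, was higher at 194, 163 and 161 FPKM against 49.2, 48.9 and 114, while the myosin heavy chain MYH9, the plastin LCP1, the monomer-binding TMSB4X and the matrix gene THBS1 were lower. MYH9 was at 46.9, 32.9 and 21.7 FPKM in DMSO and 17.0, 11.9 and 16.3 in LY10. None of the 5 other actins tested, ACTB, ACTG1, ACTA1, ACTC1 and ACTG2, passed.

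In cell2_LY against LY_DMSO 10 of 37 tested passed, or 27.0%, beside 17% of all genes, 7 of them higher. These were the crosslinkers and adhesion proteins FLNA, ACTN4 and ZYX, the myosin MYH9, the smooth muscle protein SMTN, the SRF partner MRTFB and FHL2, a target outside the cytoskeleton. ZYX, a focal adhesion protein, was at 35.5 and 26.4 FPKM against 10.6 and 15.2, a log2 fold change of 1.27 (SE 0.31). MRTFB was at 6.10 and 4.28 against 2.41 and 2.11 FPKM, a log2 fold change of 1.18 (SE 0.30). TPM3 was lower, at 29.6 and 75.6 against 135 and 218 FPKM, as were CFL1 and TMSB4X, both binders of actin monomers or filaments. SRF itself, at 3.11 and 1.67 against 1.29 and 1.48 FPKM, did not pass. Of the trophectoderm markers 2 of 8 tested, CDX2 and GATA2, passed upwards in the same comparison. The epiblast marker DPPA4, 1 of 6 tested, and the hypoblast marker PDGFRA, 1 of 4 tested, passed downwards, and the part of these markers was not tested.

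In cell16_LY against LY_DMSO 3 of 37 passed, or 8.11% beside 5.22% of all genes, FHL2 and SMTN higher and ACTN1 lower. The trophectoderm marker IFNT2 passed upwards there, 1 of 8 tested, and its part was not tested. In cell16_LY against cell2_LY 6 of 37 passed, or 16.2% beside 11.3% of all genes, SYNPO2 and TPM3 higher and ACTN4, FLNA, MRTFA and ZYX lower. In the bESCs 0 of 41 passed by limma. None of the list passed an adjusted p of 0.05 by limma in any comparison.

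Some values carry shared reads as a limit. TAGLN2 overlaps CFAP45 by 526 bases and an antisense non-coding gene by 4206. PLS3 overlaps an antisense non-coding gene by 1694 bases, and CNN3 overlaps SLC44A3 by 196. In the bESC gene models ACTA2 overlaps FAS on the other strand by 851. TPM1 overlaps an unnamed protein-coding gene on its own strand there by 1953. The labelled library protocol names no strand marking, so reads of such pairs cannot be told apart. ACTA2 also has near-identical coding sequence in ACTG2, ACTC1 and ACTA1, and how multiply aligned reads were counted is not given in the sources used here. In the DMSO blastocysts ACTC1 was at 16.1 to 57.4 and ACTG2 at 6.07 to 31.1 FPKM.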

How the data were processed

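RNA was sequenced from 12 single bovine blastocysts and 4 bESC libraries, grouped by the labels. The deposited values are FPKM, and per the labels the authors used HISAT2 2.0.5, StringTie 1.3.3b, featureCounts 1.5.0-p3 and DESeq2 1.20.0. The genome build is not given in the sources used here, but positions equal those of RefSeq for ARS-UCD2.0 in 98.8% of 36219 matched genes. The tables also hold the authors' fold changes and p-values, which were not used. FPKM times gene length fell on whole multiples of 1 step per library for 100% of values (within 0.02 reads). This gave reads on each gene and the authors' library size, which followed median-of-ratios factors within 1.26%. Normalized counts are reads rescaled to a common library size, the geometric mean in each table. For genes with a mean of at least 10, log2(normalized count + 1) was fitted over the whole table by lmFit and eBayes with a trend (R 4.3.3, limma 3.58.1), and p-values were Benjamini-Hochberg adjusted over all genes tested. The code was tested on simulated data. In the second table the 3 groups shared 1 fit. A gene at 0 is given a limit of 3 reads. Intervals and limits cover counting error only, since amplified reads without molecular identifiers are not independent. The members, lists and tests were chosen with earlier results of these data known. All 10 members are named, other cytoskeleton genes where they passed the threshold, and the 5 genes most like TAGLN among those with a mean of at least 50. 1 gene of the cytoskeleton list is not reported here and is in none of the list counts. No sequences are shown.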

Additional observations from a re-analysis of the deposited data

Results flagged for a closer look

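TAGLN stood on opposite sides of its controls in 2 comparisons of LY with solvent: its log2 fold change was −6.21 in LY10 against DMSO, where all 3 treated blastocysts lay below all 3 controls, and 4.27 in cell2_LY against LY_DMSO, where both treated blastocysts lay above both controls. In cell2_LY against LY_DMSO groups did not overlap for 3904 genes higher and 3905 lower of the 14529 tested. The TAGLN value there had an adjusted p of 0.149 by limma and was 1.92 without LY_DMSO 1. CNN2 had a log2 fold change of 1.07 in LY10 against DMSO and −0.37 in cell16_LY against LY_DMSO, each without overlap between the groups. The second value did not pass (limma, unadjusted p = 0.342, 95% interval −1.21 to 0.47), groups did not overlap there in 42.9% of all genes, and in cell2_LY against LY_DMSO the value was 0.32 with overlap. The difference between the comparisons was not tested for either gene, since they stand in separately normalized tables with controls of their own. The control levels of TAGLN also differed between the tables, at 8.36 to 11.0 FPKM in DMSO and 0 and 1.35 FPKM in LY_DMSO.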

How the results depend on the processing

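Calls of members were recomputed with other scalings, pseudocounts, filters, voom weights, a replicate block, a fit of the compared pair of groups alone, leaving out each library in turn and, chosen after seeing the data, on log2(FPKM + 1) and with Y-linked reads as a covariate. Leaving out 1 library gave 3 to 6 members with groups apart by more than 1 in LY10 against DMSO, and called 2 to 3 in cell2_LY and 0 to 4 in cell16_LY against LY_DMSO, 2 to 3 in cell16_LY against cell2_LY and 0 in the bESCs; the fewest in LY10 came without DMSO 2. A lone sample left in a group was assumed to vary like the others. With Y-linked reads as a covariate 4 members passed in cell16_LY against cell2_LY.

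Direction turned, with the cause not tested, for TPM1 in cell2_LY against LY_DMSO under quantile normalization (0.0898) and the Y-linked covariate (0.18), for TPM2 there under the covariate (0.83), and in cell16_LY against cell2_LY for ACTA2 under quantile normalization (−0.20), library sizes taken as reads on genes (−0.16) and the covariate (−1.78) and for TAGLN2 under the covariate (−0.11). Reads on genes as library size moved the median of all genes to 0.24 in cell2_LY against LY_DMSO and −0.18 in cell16_LY against cell2_LY. The genes called were then 1842 higher and 674 lower (1265 and 1211 before) and 421 higher and 1261 lower (810 and 839 before), and quantile normalization turned 884 higher and 1213 lower in LY10 against DMSO to 1074 and 879. Over all genes, the filter and scale moved the number called from 2097 to 1350 (a mean of at least 50) in LY10, from 2476 to 1628, 758 to 454 and 1649 to 958 on log2(FPKM + 1) in the 3 comparisons of the second table, and without a filter from 758 to 1238 in cell16_LY against LY_DMSO and from 12 to 158 in the bESCs. The log2 fold change of TAGLN in LY10 against DMSO was −6.78, −4.52 and −3.37 with pseudocounts of 0.5 and 5 and on log2(FPKM + 1).

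With 1 library left out, uncalled values that turned ranged as follows. In cell2_LY against LY_DMSO these were ACTA2 from −1.67 to 2.32, TPM1 from −0.91 to 0.39, TPM2 from −1.80 to 1.05 and CNN2 from −0.0398 to 0.68. In cell16_LY against LY_DMSO they were ACTA2 from −1.62 to 2.37, TAGLN from −0.57 to 4.11, PLS3 from −0.98 to 0.50, TAGLN2 from −1.41 to 0.80, TPM1 from −1.09 to 0.21 and TPM2 from −2.36 to 0.48. In cell16_LY against cell2_LY they were ACTA2 from −1.61 to 1.72, TPM1 from −0.62 to 0.25 and TPM2 from −1.54 to 0.41. In the bESCs they were CNN1 from −0.29 to 0.56, MYL9 from −2.66 to 3.37, PLS3 from −0.11 to 0.15, TAGLN from −0.26 to 0.11, TPM1 from −0.23 to 0.0635, ACTA2 from −0.45 to 0.34, CNN2 from −0.37 to 0.33, CNN3 from −0.0682 to 0.0256 and TPM2 from −0.62 to 0.50.

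With the replicate number as a block, 3, 1, 2 and 0 members passed in the 4 comparisons with a test, as without it. In LY10 against DMSO the 5 members are counted by groups that do not overlap and a fold, which a block cannot change. Same-numbered bESC libraries deviated together (r = 0.789 in both pairs), but the labels do not say that the number marks a shared culture. There the block raised the genes called from 12 to 146 and those with an adjusted p under 0.05 from 0 to 116, none of them members. In the blastocysts same-numbered libraries did not deviate together (r from −0.232 to 0.168).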
